A study of Mus musculus with 6 samples.

Results

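The proteasome subunit genes were examined in neonatal mouse skin with constitutively active Nrf2. They were taken as every gene of the array annotation whose symbol begins with Psma, Psmb, Psmc or Psmd followed by a number, which gave 40 genes, with 80 probe sets, of 18193 genes tested. RefSeq lists 46 mouse symbols of this form, of which 6 are pseudogenes, and all 40 others were on the array. The members comprised 8 alpha and 11 beta subunits of the core particle, 6 ATPases and 3 further subunits of the base, 8 subunits of the lid, 3 base assembly chaperones that carry Psmd names, and Psmc3ip, a meiotic recombination factor that the pattern takes although it is no subunit.

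Both groups were female littermates on a mixed FVB/N and C57BL/6 background, killed on postnatal day 2.5, and both carried K5cre. The 3 caNrf2 mice were K5cre-caNrf2 (tg/tg), in which keratin 5-driven Cre turns on a constitutively active Nrf2 in keratinocytes, and the 3 control mice were K5cre-wt (tg/wt). Each array held back skin RNA of 1 mouse, 2 ug of total RNA being labelled, and n = 3 counts mice. In the labels the genotype of the transgenic mice is given as tg/g in 1 place and tg/tg in another. All 6 mice have CaNrf2 as treatment, so groups were taken from the sample titles. These titles read transgene strong or wildtype strong, so all 6 arrays share the word strong. What that word refers to was not examined. The transgene acts in keratinocytes while RNA came from whole skin, and in such RNA fewer cells of a type and less RNA per cell cannot be told apart.

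The proteasome degrades proteins tagged with ubiquitin. Its barrel-shaped core particle encloses the proteolytic beta subunits between rings of alpha subunits, and the regulatory particle, made of a base with an ATPase ring and a lid, recognises, deubiquitinates and unfolds the substrate. The genes are known as targets of Nrf1 (Nfe2l1), which raises them when proteasome activity is low, and some, Psmb5 among them, have also been described as responsive to Nrf2. Nrf2 itself is degraded by the proteasome after Keap1 has directed its ubiquitination.

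RefSeq promoter windows of 300 bases (250 before to 50 after the start site, GRCm38.p6) were used for 33 of the 40 genes. Member windows on a single chromosome were left out of the search, while the shares over all genes kept that chromosome. How many of the members without a window this accounts for was not examined. They are shown because Nrf2 binds the antioxidant response element (ARE), whose core was searched as TGACNNNGC on both strands. Its leading TGAC is shared with AP-1 and cyclic AMP response elements. The core was present in 5 of 33 members (15.2%), against 16.2% of the 14452 tested genes with a window and 14% of all 27025 genes with one. The 5 matches are printed 5′ to 3′ along the gene with the match in capitals and up to 20 bases on either side. The match in Psmc6 and Psmd12 lies on the other strand and reads as the reverse complement, GCNNNGTCA.
Psmb5, chr14:54618014-54618062, minus strand of the gene: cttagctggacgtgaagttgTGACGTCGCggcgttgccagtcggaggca
Psmb6, chr11:70525328-70525376, plus strand of the gene: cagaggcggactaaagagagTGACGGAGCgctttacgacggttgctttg
Psmc6, chr14:45329577-45329625, plus strand of the gene: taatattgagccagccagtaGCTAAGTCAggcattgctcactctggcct
Psmd9, chr5:123228139-123228187, plus strand of the gene: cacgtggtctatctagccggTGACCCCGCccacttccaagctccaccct
Psmd12, chr11:107479278-107479309, plus strand of the gene: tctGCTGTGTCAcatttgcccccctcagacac
Relative to the start site the match began at position -47 in Psmb5, -9 in Psmb6, -227 in Psmc6, -31 in Psmd9 and -247 in Psmd12. The window of Psmd5, the member with the largest difference between the groups, held neither orientation of these letters and is shown whole, with no capitals.
Psmd5, chr2:34870913-34871212, minus strand: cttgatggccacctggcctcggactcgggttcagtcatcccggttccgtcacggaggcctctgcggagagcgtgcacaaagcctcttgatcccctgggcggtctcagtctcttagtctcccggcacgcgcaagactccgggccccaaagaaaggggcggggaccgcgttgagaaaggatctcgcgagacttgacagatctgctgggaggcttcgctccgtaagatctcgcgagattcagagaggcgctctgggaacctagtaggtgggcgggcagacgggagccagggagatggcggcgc
The CCAAT box, searched as CCAAT on both strands, was present in 14 of the 33 members (42.4%) and in 42% of the tested genes with a window. By role it was present in 5 of the 7 alpha subunits with a window and in 1 of 4 standard beta subunits. These shares are descriptions of letters in short windows and carry no test.

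Most proteasome genes differed little between the genotypes. Psmd5, an assembly chaperone of the base, was the 1 member of 40 that rose in caNrf2 skin, none fell, and 39 did not pass (limma, Benjamini-Hochberg adjusted p under 0.05 over 18193 genes). Over all genes tested 2.26% were called higher, 1.39% lower and 3.66% in either direction, so 1 called member of 40 lay near the background. The log2 fold changes of the members ran from -0.16 to 0.44 with a median of 0.03, against a median of -0.00 over all genes and of -0.02 over the 2642 genes with a mean intensity of at least 1000, a limit set after the data were seen. At an unadjusted p under 0.05, 6 members were higher and 1 was lower, which is 15% and 2.5% of the members against 10.8% and 9.55% of all genes.

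The estimates leaned to the higher side by small amounts. The log2 fold change was above 0 in 31 of 40 members (77.5%), in 48.6% of all genes and in 38.8% of genes with a mean intensity of at least 1000. The 3 caNrf2 arrays lay above the 3 control arrays without overlap in 9 members (22.5%), and below them in 2 (5%), where the same held for 12.7% and 13% of all genes (25.7% in either direction). The 95% interval of the log2 fold change lay within 0.3 of 0 for 33 of the 40 members (82.5%) and for 67.2% of all genes, so for most members a change as large as 0.3 on the log2 scale lay outside the interval. The 7 others were Psma1, Psmb5, Psmb9, Psmb11, Psmc4, Psmd5 and Psmd7. The plot of fold changes with intervals shows these members side by side.

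**Figure D1:**
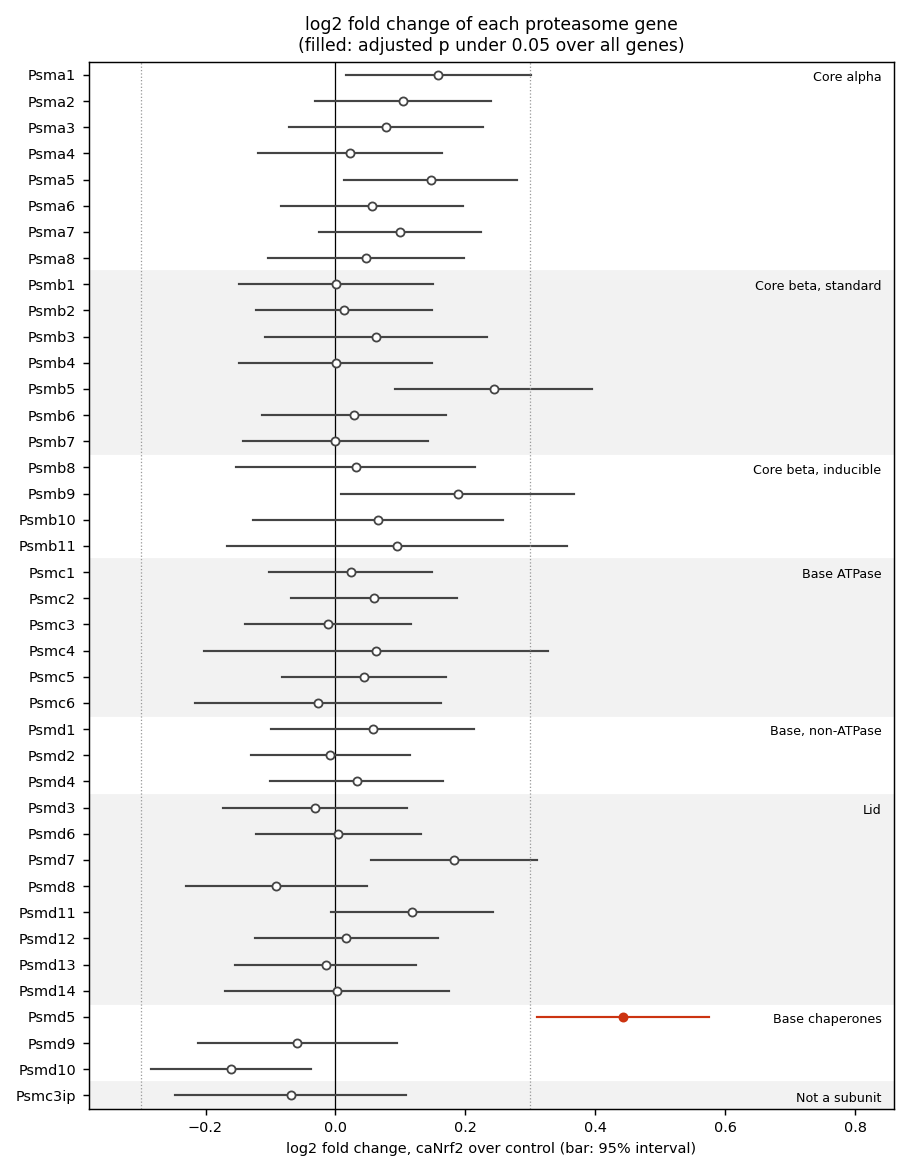
Points give the log2 fold change (caNrf2 over control, 3 arrays each) of 40 genes grouped by role, bars the 95% interval from limma, and dotted lines mark 0.3 on either side of 0. The filled point is Psmd5 at 0.44, the 1 member past an adjusted p of 0.05, while the others lie between -0.16 and 0.24.

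The alpha subunits form the outer rings of the core particle and gate the entry of substrate. None of the 8 passed, and all 8 estimates were above 0, from 0.02 to 0.16 with a median of 0.09, including the testis-specific Psma8, whose intensity of 13.3 to 15.4 was no higher than that of Y-linked probe sets (6.46 to 61.6 as group means), a gauge of background in female mice. Psma1 had the largest estimate, with intensities of 2702, 2995 and 2753 on the control arrays and 3032, 3202 and 3190 on the caNrf2 arrays. Its groups did not overlap, and its log2 fold change was 0.16 ± 0.06 (SE, n = 3; limma, adjusted p = 0.204). Psma5 differed by 0.15 ± 0.06, Psma2 by 0.10 ± 0.06 and Psma7 by 0.10 ± 0.06, also without overlap between the groups (limma, adjusted p from 0.208 to 0.361). A second probe set of Psma5, with control and caNrf2 means of 2317 ± 147 and 2687 ± 109 (SD, n = 3), gave 0.22. Psma4 had the smallest estimate of the alpha subunits, 0.02 ± 0.06, with intensities of 3495, 3644 and 3785 on the control arrays and 3645, 3556 and 3893 on the caNrf2 arrays. Psma3 read 5138, 5247 and 5237 on the control arrays and 5619, 5071 and 5831 on the caNrf2 arrays, and Psma6 read 4368, 4585 and 4363 on the control arrays and 4432, 4896 and 4528 on the caNrf2 arrays. In both of these, caNrf2 and control arrays overlapped, and their estimates were 0.08 and 0.06. The 4 alpha subunits with overlapping groups were thus Psma3, Psma4, Psma6 and Psma8.

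The standard beta subunits carry the 3 proteolytic activities in Psmb5 (chymotrypsin-like), Psmb6 (caspase-like) and Psmb7 (trypsin-like), beside the inactive Psmb1, Psmb2, Psmb3 and Psmb4. None of the 7 passed. Psmb5 had the largest estimate, those of the other 6 running from 0.00 to 0.06 by their brightest probe sets. A second bright probe set of Psmb4 gave 0.17 ± 0.09 with groups that overlapped (control and caNrf2 means of 3823 ± 194.5 and 4331 ± 526; SD, n = 3), and the mean over both Psmb4 probe sets gave 0.09. The intensities of Psmb5 were 2320, 2491 and 2153 on the control arrays and 2690, 2820 and 2721 on the caNrf2 arrays. Every caNrf2 array lay above every control array, and the log2 fold change was 0.24 ± 0.07 (95% interval 0.09 to 0.40; n = 3; limma, adjusted p = 0.0882). With an intensity trend and robust variances in limma it passed at an adjusted p of 0.0188, and over the other alternatives the adjusted p ran up to 0.226. Psmb7 read 4325, 4602 and 4155 on the control arrays and 4184, 4485 and 4407 on the caNrf2 arrays, and Psmb1 read 3822, 4125 and 3594 on the control arrays and 3798, 3955 and 3782 on the caNrf2 arrays. Both had the same mean in the 2 groups to within 3 intensity units, with 95% intervals of -0.14 to 0.14 and -0.15 to 0.15.

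Within an array, the ratio of Psmb5 to the other catalytic subunits was higher on every caNrf2 array than on every control array. The exact permutation test used for the ratios cannot reach p under 0.05 with 3 arrays a group. The comparison of ratios was chosen after the values were seen and covers 6 ratios. The log2 ratio of Psmb5 to Psmb6, set to a mean of 0 in the controls, was 0.01, 0.03 and -0.04 on the control arrays and 0.20, 0.20 and 0.25 on the caNrf2 arrays. For Psmb5 to Psmb7 the values were 0.01, 0.03 and -0.04 against 0.27, 0.24 and 0.22. The differences were 0.21 ± 0.03 and 0.24 ± 0.03 (SE, n = 3), each with an exact two-sided permutation p of 0.1, the smallest that 3 against 3 arrays allow, and 0.15 adjusted over the 6 ratios. The ratio of Psmb6 to Psmb7 differed by 0.03 ± 0.03 (exact permutation p = 0.4). Against their inducible counterparts, Psmb5 to Psmb8 differed by 0.21 ± 0.04 and Psmb6 to Psmb9 by -0.16 ± 0.06 (exact permutation p = 0.1 for each, adjusted 0.15), and Psmb7 to Psmb10 by -0.07 ± 0.06 (exact permutation p = 0.4). A ratio of this kind shows unequal change only.

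The array-to-array spread of the beta subunits had a common shape. Control replicate 2 was the highest and control replicate 3 the lowest control array for all 7 standard beta subunits. Over the 40 members control replicate 2 was the highest control in 32 (80%), against 38.6% of all genes, and control replicate 3 the lowest in 23 (57.5%), against 44.6% of all genes. The median of the members relative to the control mean was -0.01, 0.04 and -0.02 on control replicates 1, 2 and 3 and 0.02, 0.02 and 0.03 on caNrf2 replicates 1, 2 and 3 (log2). The highest control array thus lay above all 3 caNrf2 arrays in this median. Without control replicate 2 the median log2 fold change of the members was 0.05, and without control replicate 3 it was 0.02, where it was 0.03 with all arrays.

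**Figure D2:**
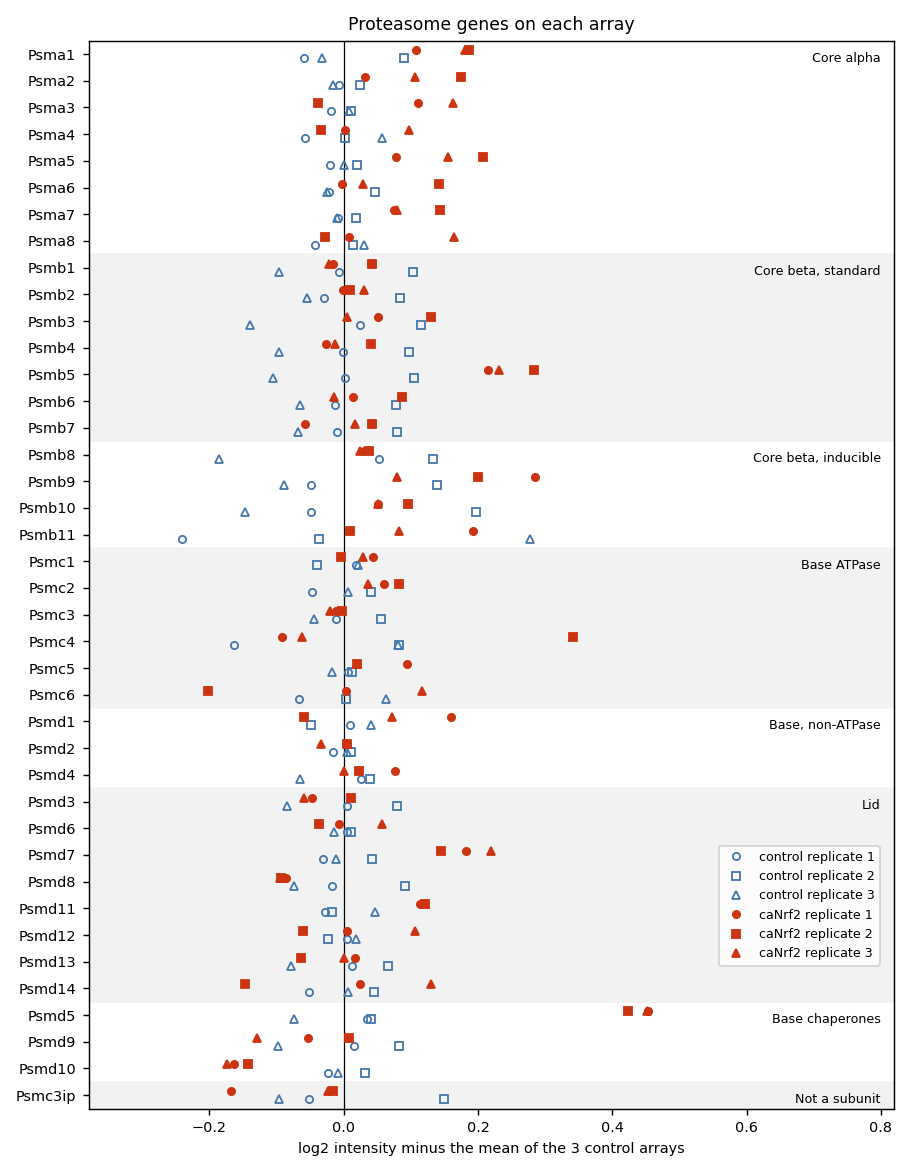
Each row is 1 gene and each symbol 1 array, plotted as log2 intensity minus the mean of the 3 control arrays, open for control and filled for caNrf2. Filled symbols lie clear above the open ones in 9 members, Psmd5, Psmb5 and Psmd7 among them, and clear below in 2. These are 22.5% and 5% of the members, against 12.7% and 13% of all genes. The open square (control replicate 2) is the highest control in all 7 standard beta subunits.

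The inducible beta subunits Psmb8, Psmb9 and Psmb10 replace Psmb5, Psmb6 and Psmb7 in the immunoproteasome of leukocytes and of interferon-treated cells, and Psmb11 takes such a place in the thymic cortex. None of the 4 passed, with estimates of 0.03 to 0.19. Psmb9 had the largest, with intensities of 78.9, 89.8 and 76.7 on the control arrays and 99.4, 93.7 and 86.2 on the caNrf2 arrays. The groups overlapped, control replicate 2 lying above caNrf2 replicate 3, and the log2 fold change was 0.19 ± 0.08 (n = 3; limma, adjusted p = 0.228). Psmb8 read 117, 124 and 99.1 on the control arrays and 115, 116 and 115 on the caNrf2 arrays, a spread of the controls that took in all 3 caNrf2 arrays (0.03 ± 0.08). Psmb10 differed by 0.07 ± 0.09 (adjusted p = 0.705). Psmb11 read 13.9 to 19.9 over the 6 arrays, no higher than Y-linked probe sets. Of 12 measured interferon and antigen-processing genes none passed (median 0.02), the smallest p being that of the class I molecule H2-K1 at 0.23 ± 0.06 (limma, adjusted p = 0.0671), followed by H2-D1 at 0.17 ± 0.07, Gbp2, an interferon-induced GTPase, at -0.20 ± 0.09 and Irf7, an interferon regulatory factor, at -0.13 ± 0.08. Of 10 leukocyte markers 1 was called higher, the Langerhans cell lectin Cd207 at 0.36 ± 0.08 (limma, adjusted p = 0.036). Cd207 was dim, its control mean of 54.9 being below the brightest Y-linked group mean (61.6) and its caNrf2 mean of 70.8 above it. The summed intensity of the 10 markers was 4191 to 4494 on control and 4199 to 4732 on caNrf2 arrays. The log2 fold change was above 0 in 7 of the 10. Among the markers that did not pass, the class II molecule H2-Eb1 gave 0.21 ± 0.06 and the pan-leukocyte gene Ptprc -0.24 ± 0.07 (limma, adjusted p = 0.094 and 0.109), with groups that did not overlap in either. The part of leukocytes in the Psmb9 values was not tested.

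The ATPases Psmc1 to Psmc6 form the ring that unfolds substrates and opens the core particle. None of the 6 passed, and their estimates ran from -0.03 to 0.06 with a median of 0.03. Psmc4 had the highest and widest, 0.06 ± 0.12 (95% interval -0.20 to 0.33), with intensities of 2703, 3206 and 3202 on the control arrays and 2841, 3837 and 2900 on the caNrf2 arrays. caNrf2 replicate 2 lay far above the other 2 caNrf2 arrays, which lay among the controls. The other Psmc4 probe set read 1927, 2045 and 1865 on the control arrays and 1862, 1860 and 1761 on the caNrf2 arrays, a difference of -0.09 with no overlap and no high array. Psmc6, with the lowest estimate, read 2245, 2358 and 2457 on the control arrays and 2358, 2045 and 2550 on the caNrf2 arrays (-0.03 ± 0.08). Here caNrf2 replicate 2 was the lowest of all arrays. Psmc2 read 3203, 3405 and 3325 on the control arrays and 3449, 3504 and 3394 on the caNrf2 arrays (0.06 ± 0.06), with groups that overlapped. Psmc5 differed by 0.04 ± 0.06 without overlap, and Psmc1 and Psmc3 by 0.02 and -0.01.

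The 3 further base subunits are the scaffolds Psmd1 and Psmd2 and the ubiquitin receptor Psmd4. None passed, the median was 0.03, and the 3 intervals all lay within 0.3 of 0. Psmd1 read 2015, 1936 and 2059 on the control arrays and 2236, 1922 and 2105 on the caNrf2 arrays (0.06 ± 0.07), and Psmd2 read 2878, 2933 and 2922 on the control arrays and 2920, 2922 and 2844 on the caNrf2 arrays (-0.01 ± 0.05). Groups overlapped in both, and in Psmd4 (0.03).

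The lid holds the deubiquitinase Psmd14 with its partner Psmd7 and a set of scaffold subunits. None of the 8 passed, and the median was 0.00, from -0.09 to 0.18. Psmd7 had the largest estimate, with intensities of 1408, 1481 and 1427 on the control arrays and 1632, 1591 and 1675 on the caNrf2 arrays. The groups did not overlap, and the log2 fold change was 0.18 ± 0.06 (95% interval 0.05 to 0.31; limma, adjusted p = 0.121). It passed with an intensity trend and robust variances, at an adjusted p of 0.0495, but the mean over its 3 probe sets gave 0.06 (adjusted p = 0.546). Psmd14 itself gave 0.00 ± 0.08. Psmd11, a scaffold that clamps the lid to the core particle, was read by 8 probe sets, and all 8 estimates were above 0, from 0.05 to 0.16. Several Psmd11 probe sets were dim, with control means of 69.1, 61.9, 37.2 and 9.74, in or just above the range of Y-linked probe sets. The brighter ones, with control means of 1276 to 3474, gave 0.06 to 0.16. The brightest Psmd11 probe set gave 0.12 ± 0.06 without overlap (adjusted p = 0.269). Psmd8 had the lowest estimate of the lid, with intensities of 3225, 3476 and 3101 on the control arrays and 3075, 3060 and 3055 on the caNrf2 arrays. All caNrf2 arrays lay below all control arrays, with a log2 fold change of -0.09 ± 0.06 (adjusted p = 0.439). Psmd3, Psmd6 and Psmd12 gave -0.03, 0.00 and 0.02, with groups that overlapped.

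The Psmd-named chaperones Psmd5, Psmd9 and Psmd10 escort ATPases during assembly of the base and are absent from the finished particle. Psmd5 read 747, 749.7 and 692 on the control arrays and 998, 977 and 997 on the caNrf2 arrays. The lowest caNrf2 array lay above the highest control array by more than the whole range of either group. Its mean rose from 729.5 ± 32.3 to 991 ± 11.8 (SD, n = 3), a fold of 1.36 and a log2 fold change of 0.44 ± 0.06 (95% interval 0.31 to 0.58; limma, adjusted p = 0.00284). By p it ranked 175 among 18193 genes, and the call held in all 16 alternative fits, at an adjusted p of at most 0.0171. Psmd5 has 1 probe set, so no other probe set bears on this value. Psmd10, also named gankyrin, went the other way, with 372, 386 and 376 on the control arrays and 338, 342 and 335 on the caNrf2 arrays. The groups did not overlap, but the difference of -0.16 ± 0.05 did not pass (95% interval -0.28 to -0.04; limma, adjusted p = 0.146). Psmd9 read 462, 484 and 428 on the control arrays and 441, 459.7 and 418 on the caNrf2 arrays and overlapped (-0.06 ± 0.07). Psmc3ip, the symbol that is no subunit, read 340.3, 391 and 330.0 on the control arrays and 314, 349 and 347 on the caNrf2 arrays (-0.07 ± 0.08), also with overlap.

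**Figure D3:**
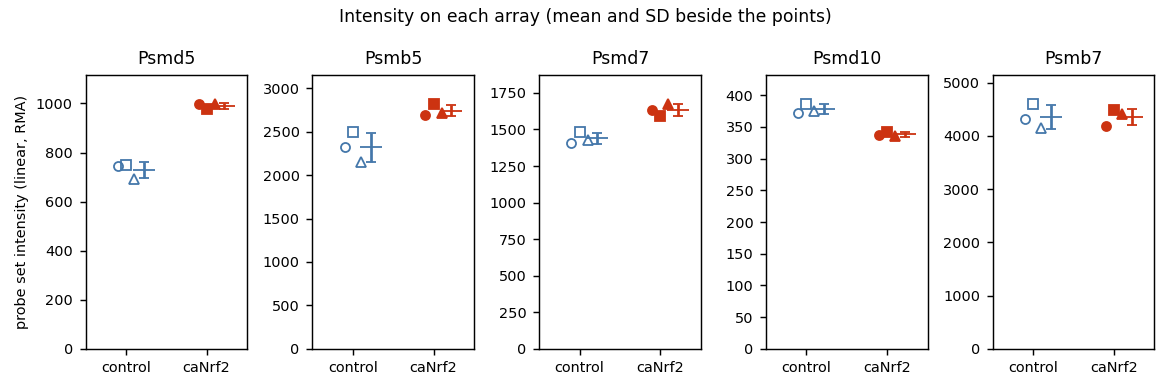
Symbols give the linear probe set intensity on each array (circle, square and triangle for replicates 1, 2 and 3; open for control, filled for caNrf2), with the mean and SD beside them and axes from 0. Psmd5 moves from a mean of 729.5 to 991, Psmb5 and Psmd7 by smaller steps without overlap, Psmd10 downward, and Psmb7 has a log2 fold change of 0.00.

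The probe sets of a gene did not always give 1 answer. Of 21 genes with several, 11 had all estimates on 1 side of 0 and 10 had them on both sides. Over all 80 probe sets 58 estimates (72.5%) were above 0, and 2 passed when adjusted over the 34945 probe sets with 1 symbol, of which 1.34% were called higher and 0.899% lower. These were the Psmd5 probe set and a dim probe set of Psmd13, a lid scaffold. The brightest Psmd13 probe set read 1196, 1242 and 1124 on the control arrays and 1200, 1135 and 1187 on the caNrf2 arrays (-0.02 ± 0.06), with groups that overlapped. In Psmd13 alone the spread between probe sets exceeded 0.3 on the log2 scale. In the other genes with estimates on both sides (Psma1, Psma3, Psma6, Psmb1, Psmc2, Psmc4, Psmc6, Psmd7 and Psmd9) it ran from 0.04 to 0.29. The brightest probe sets of Psma6, Psmc2 and Psmd11 are of the types that Affymetrix marks as able to detect related transcripts. Whether they do, or whether any probe set reads transcripts of the pseudogenes, was not tested.

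**Figure D4:**
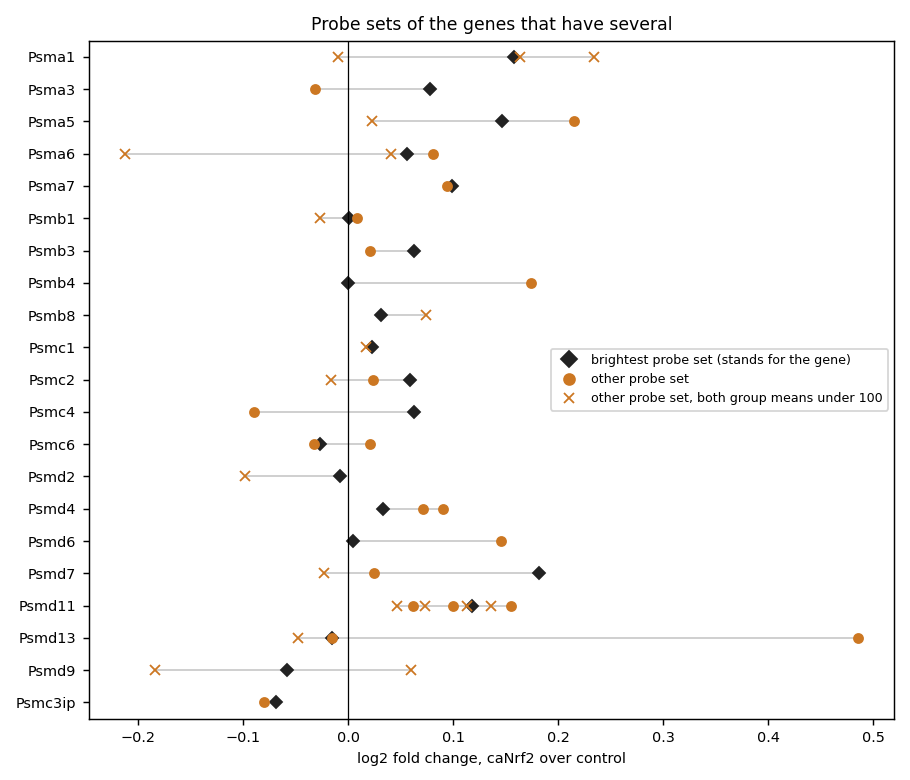
Each row is 1 of the 21 genes with several probe sets, and each symbol the log2 fold change (caNrf2 over control) of 1 probe set, a diamond for the brightest and a cross where both group means lay under 100. Most symbols of a gene lie within 0.3 of each other, and Psmd13 has 1 probe set at 0.49 while its other 3 lie between -0.05 and -0.01.

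The lists of genes whose proteins build or serve the proteasome held 0 called genes, and a separate list of cytosolic chaperones held 1, the co-chaperone Bag3. None of 7 measured assembly factors passed (median 0.04). The smallest p in that list was that of Ecpas, a proteasome adaptor, at 0.17 ± 0.07 (limma, adjusted p = 0.223), followed by the chaperone Psmg2 at 0.05 ± 0.07, Akirin2, which takes part in nuclear import of proteasomes, at 0.04 ± 0.06, and the chaperone Psmg4 at 0.06 ± 0.09. None of 4 activators and inhibitors passed (median 0.04), Psmf1, an inhibitor of the core particle, having the smallest p (0.06 ± 0.06). None of 10 receptors, shuttle factors and deubiquitinases passed (median 0.01). Their smallest p values were those of Zfand5, a proteasome-activating zinc finger protein, at 0.23 ± 0.06 (adjusted p = 0.0844), Txnl1, a proteasome-bound thioredoxin, at 0.15 ± 0.06, the deubiquitinase Uchl5 at -0.17 ± 0.07 and the shuttle factor Rad23b at -0.13 ± 0.07. None of 7 genes of the p97 unfoldase complex passed, its ATPase Vcp giving 0.13 ± 0.06 with no overlap (adjusted p = 0.237) and the cofactor Nploc4 0.13 ± 0.06. The 1 measured gene of the ubiquitin and activating enzyme list, Uba6, gave -0.12 ± 0.08. Of 9 cytosolic chaperones Bag3 rose, by 0.26 ± 0.06 (adjusted p = 0.042), and 8 did not pass (median 0.03).

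The COP9 signalosome and eIF3, complexes with subunits related to those of the lid, had no called member among 9 and 8 measured. The log2 fold change was above 0 in 3 of 9 and 3 of 8 of them, against 5 of 8 in the lid, with medians of -0.04 and -0.04, where the lid had 0.00. The smallest p values were those of Cops3 at -0.11 ± 0.06 and Eif3c at -0.15 ± 0.06 (limma, adjusted p = 0.307 and 0.199). The difference between these complexes and the proteasome was not tested.

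Among the regulators, Nfe2l1, the gene of Nrf1, did not pass, at -0.12 ± 0.07 (95% interval -0.28 to 0.05; limma, adjusted p = 0.392), with intensities of 830.3, 738 and 722 on the control arrays and 733, 711 and 666 on the caNrf2 arrays. Of the 9 measured genes of the Nrf1 and Nrf2 list, 3 rose, 0 fell and 6 did not pass. The 3 were Nfe2l2, the gene of Nrf2, at 0.63 ± 0.07 (adjusted p = 0.000739), its DNA-binding partner Mafg at 0.72 ± 0.06 (adjusted p = 0.000136) and its inhibitor Keap1 at 0.37 ± 0.06 (adjusted p = 0.0105). The ubiquitin ligase Syvn1, which acts on Nrf1, gave 0.16 ± 0.07 and did not pass (adjusted p = 0.238). Whether the Nfe2l2 probe set reads the transcript of the transgene was not tested.

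**Figure D5:**
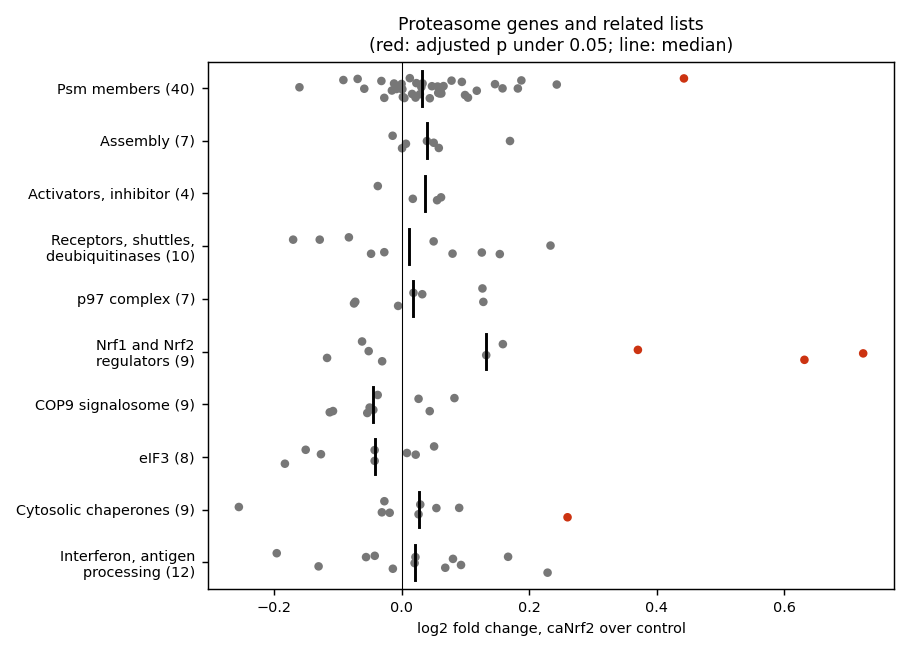
Points give the log2 fold change (caNrf2 over control) of the 40 members and of the measured genes of related lists, red where adjusted p over all genes was under 0.05, and vertical lines the median of each list (0.03 for the members). The red points are Psmd5, 3 regulators (Nfe2l2, Mafg and Keap1) and Bag3, and the medians of the COP9 signalosome and eIF3 lie at -0.04.

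Facts of the samples that moved with genotype stand beside these small differences. The labelled tissue carried all its markers, with 6 of 6 keratinocyte and 6 of 6 fibroblast markers brighter than every Y-linked probe set. The summed intensity of keratinocyte markers was 82620 to 83200 on control and 84750 to 85460 on caNrf2 arrays, and that of fibroblast markers 71070 to 73630 and 68970 to 70500. The hair follicle keratins Krt31, Krt33a, Krt35, Krt71 and Krt27 summed to 34920 to 38430 on control and 31370 to 32290 on caNrf2 arrays. None of these keratinocyte, fibroblast or hair follicle genes passed. Melanocyte markers summed to 10780 to 11480 and 9254 to 10170, 1 of 5, Mlana, being called lower at -0.38 ± 0.09, and none of the endothelial, muscle, adipocyte and erythroid markers passed. The upper quartile of an array was 334 to 341 in controls and 325 to 328 in caNrf2. The lower quartile went the other way, with 23.77 to 24.25 in controls and 24.89 to 25.35 in caNrf2. The Actb 3′ over 5′ log2 ratio was 0.48 to 0.50 in controls and 0.52 to 0.54 in caNrf2. The part of these shifts in differences of the size seen in most members was not tested.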

How the data were processed

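RNA from back skin of 6 mice was hybridised to Affymetrix arrays, 1 array a mouse. The authors deposited linear intensities, 1 per probe set and array. The submitters' processing notes name RMA, whose version is not given in the sources used here. RMA quantile-normalizes the arrays, so a shift of most transcripts could not be seen. The number of arrays limits the precision. Of 45101 probe sets, 34945 had 1 gene symbol, 932 had several, 9160 had none and 64 were controls. Symbols were updated through Entrez identifiers to RefSeq (GRCm38.p6 annotation; 34741 matched). A gene was represented by its brightest probe set (mean of all 6 arrays), and no gene was removed. A filter at a mean intensity of 32, tried as an alternative, kept 38 of the 40 members.

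log2 intensities were fitted with limma 3.58.1 (lmFit, eBayes, R 4.3.3) with group as the term, over all 18193 genes, and p-values were two-sided with Benjamini-Hochberg adjustment over all genes. The fit was tested on simulated data. Errors are SE from the fit unless given as SD. Ratios and exact permutation tests were computed in Python 3.11.15. Of 143 entries of the related and marker lists, 125 matched a measured gene. The members and lists were chosen with earlier results of these data known. Every member may be named. Arrays are given for the called member, the highest and lowest of each role and members whose probe sets disagree, and up to 4 genes with the smallest p of each related list are named, with all called genes, Nfe2l1 and Nfe2l2. The alternatives were an intensity trend with robust variances, array weights, log2(value + 16), a further quantile normalization, median centring, other rules for probe sets and symbols, a filter on dim genes, a replicate block, each array left out and a threshold of 0.01.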

Additional observations from a re-analysis of the deposited data

Results flagged for a closer look

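A Psmd13 probe set that did not stand for its gene differed between the groups, above the level of the control arrays. It read 90.4, 92.1 and 86.5 on the control arrays and 123, 124 and 130.4 on the caNrf2 arrays, a log2 fold change of 0.49 ± 0.06 (SE, n = 3; limma, adjusted p = 0.00317 over 34945 probe sets). The other 3 Psmd13 probe sets gave -0.02, -0.01 and -0.05, the brightest with means of 1187 ± 59.6 and 1174 ± 34.4 (SD, n = 3). Which transcript this probe set reads was not tested. Groups of 3 arrays are too small for a check of single outlying arrays.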

How the results depend on the processing

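Psmd5 was the called member in the fit as reported and was called in all 16 alternative fits, with a log2 fold change of 0.41 to 0.47 and an adjusted p of at most 0.0171. With an intensity trend and robust variances 3 members were called higher (Psmd5, Psmb5 and Psmd7) instead of 1, and 501 genes were called lower over all genes instead of 253. The cause was not tested. In every other alternative 1 member was called higher, and in all of them 0 were called lower, where 1 member was lower at an unadjusted p under 0.05 in limma. The median of the members stayed between 0.02 and 0.05. At an adjusted p under 0.01, 188 genes were higher and 56 lower. With 1 array left out the count of genes called higher was 226 to 316 and lower 72 to 196, with fewer samples in the fit. It moved by over 1.5 times without caNrf2 replicate 3 (244 higher, 95 lower), control replicate 1 (226 and 72) or control replicate 3 (265 higher), and without caNrf2 replicates 1 and 2 for lower genes (146 and 131). After the mean of its own group was subtracted for each gene, caNrf2 and control arrays with the same replicate number correlated at 0.03, 0.14 and 0.09. Among arrays of the other group, 5 of 6 arrays correlated best in this way with their own number, which is a hint from the data and not the design. With the replicate number as a block 353 genes were higher and 237 lower, 1 member was higher and 0 were lower. With 3 arrays a group the median SE of a member was 0.063 on the log2 scale, and the smallest log2 change called over all genes was 0.24. That value is the smallest estimate called, not a limit of detection. In the simulated data, with 200 changed genes, the fit called 0% of log2 changes of 0.1 and 6% of those of 0.25. It called 64% of changes of 0.5 and 98% of changes of 1. A change of 0.25 or less would thus mostly go uncalled, so a member that did not pass may still differ by such an amount.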

Other observations

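The genes outside the members whose log2 values followed the members' mean most closely over the 6 arrays were 4930555G07Rik (Pearson r = 0.994), Ctxn3 (0.993), 1110032F04Rik (0.993), Fxr2 (0.988) and Avp (0.987). All points share the 6 arrays, none of the 5 genes was called (limma, adjusted p from 0.177 to 0.475), and with 18193 genes and 6 points this is a description only.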
